A study of Homo sapiens with 4 samples.

Results

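The olfactory receptor genes of human chromosome 11 were described by the cohesin peaks that lie in or near them in HCT116 cells, a colon carcinoma cell line. The members were all protein-coding genes of chromosome 11 in the GENCODE version 44 annotation whose symbol has the form of an olfactory receptor gene (OR, a family number, subfamily letters and a gene number). The rule gave 172 genes, of 1317 protein-coding genes on chromosome 11 and 20046 on all chromosomes. The other 1145 protein-coding genes of chromosome 11 served for comparison. The study made 4 ChIP-seq libraries without replicates. RAD21 was precipitated from wild-type HCT116 cells (untreated) and from HCT116_RAD21_AID cells that were either untreated or kept for 6 h in the auxins IAA (indole-3-acetic acid) and α-NAA (alpha-naphthaleneacetic acid), each at 500 μM, and the auxin-treated cells also gave an Input library. HCT116_RAD21_AID is 1 selected clone that carries an mAID degron in the RAD21 gene and expresses the OsTIR1 ubiquitin ligase. All values below rest on the peaks of wild-type cells, and the remaining 3 libraries were not used here. Cells of this line are not olfactory neurons, and a peak list holds no expression values, so that the silence of the receptor genes was not tested.

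Cohesin is a ring-shaped complex that holds sister chromatids together and extrudes chromatin loops, and RAD21 is one of its core subunits. Loop extrusion is known to stop at many sites bound by CTCF, a zinc finger protein that recognises a DNA motif, so that cohesin peaks often lie on CTCF sites. Olfactory receptors are G protein-coupled receptors for odorants. Their genes form large clusters, most have their coding sequence in a single exon, and a mature olfactory neuron expresses a single one of them. Class I receptors (families OR51 to OR56) lie together in a single cluster on chromosome 11, and class II receptors include all other families.

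Each peak was placed by its summit, the base of highest enrichment that the peak caller gave. The list held 56853 peaks, of which 2709 lay on chromosome 11. Fold enrichment is the ratio of ChIP fragments to the local background at the summit, each with 1 added, and it reached 106 on this chromosome. The fragments behind a summit were recovered from the fold enrichment and the p-value. The lowest summit depth was 15 fragments in the whole list and 18 near the receptor genes, with a median of 58 near them. The CTCF consensus, a motif of 12 bases searched on both strands, lay within 50 bp of 13.0% of the chromosome 11 summits, against 0.0394% of windows of the same length tiled over the chromosome. The list thus had the enrichment of CTCF motifs known for cohesin. As there was 1 library, no difference below has a replicate check and no p-value is given. The 95% intervals cover counting error only, and neighbouring receptor genes that reach the same summit are not independent of each other.

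Few olfactory receptor genes had a RAD21 summit in or near them. A summit lay in the gene body or within 10 kb of it for 36 of the 172 receptor genes (20.9%, Wilson interval 15.5–27.6%). The same held for 929 of the 1145 other genes (81.1%, interval 78.8–83.3%) and for 73.3% of all protein-coding genes of the chromosome. Thus the share of receptor genes lay below that of the other genes by far more than counting error. The remaining 136 receptor genes had no summit within 10 kb. Of those with one, 32 had 1 summit, 3 had 2 and 1 had 3. Inside the gene body, 5 receptor genes (2.91%) held a summit, against 662 other genes (57.8%) and 50.6% of all genes. Within 1 kb of any of their annotated transcription starts, 2 receptor genes (1.16%) had a summit, against 514 other genes (44.9%) and 39.2% of all genes.

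Receptor genes are short. The median body was 1082.5 bp in receptor genes and 21466 bp in the other genes. Among genes with a body of up to 2 kb, 12 of 97 receptor genes (12.4%, interval 7.22–20.4%) and 34 of 55 other genes (61.8%, interval 48.6–73.5%) had a summit within 10 kb. Measured from the nearest annotated transcription start instead of the body, 26 receptor genes (15.1%) and 833 other genes (72.8%) had a summit within 10 kb. The starts of all annotated transcripts of a gene counted here, also those within its body. The number of starts per gene was not matched. The intervals of the short genes did not overlap, although the short receptor genes, with a median body of 948 bp, were still shorter than the short other genes, with 1189 bp. The short genes were also not matched in base composition. The GC content of their windows was 37.5% in receptor genes and 49.8% in other genes. Windows of the short other genes held 59.0 summits per Mb, above the 24.9 per Mb of all other genes. The parts of body length and of base composition in the difference were not tested further.

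The nearest summit lay at a median distance of 33.3 kb from a receptor gene, with quartiles of 13.5 and 66.9 kb, while the median over the other genes was 0 bp. By distance, 15 receptor genes had their nearest summit between 1 bp and 5 kb away, 16 between 5 and 10 kb, 33 between 10 and 25 kb, 46 between 25 and 50 kb, 37 between 50 and 100 kb and 20 beyond 100 kb. These last 20 were 11.6% of the receptor genes, whereas only 12 of the 1145 other genes lay more than 100 kb from a summit. Among those 12 were TRIM49B, TRIM64C, TRIM49, TRIM64B, TRIM49D1, TRIM49D2 and TRIM64, at 110650 to 194871 bp. These genes of the TRIM family lie outside the receptor clusters. The limit of 10 kb did not fall in a gap of these distances. Just inside it were OR8D2 at 9798 bp and OR5M1 at 9845 bp, and just outside it were OR4A15 at 10204 bp and OR8G5 at 11783 bp. The summits nearest to these 4 genes had fold enrichments of 3.62, 5.07, 8.84 and 5.65, respectively.

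The receptor genes were compared with other gene families of the chromosome by the same count. Of the ribosomal protein genes, which are expressed in every cell, 5 of 5 had a summit within 10 kb. Of the MMP genes (matrix metalloproteinases) 8 of 10 had one, of the KRTAP5 genes (keratin-associated proteins of hair) 7 of 11, of the MS4A genes (tetraspanning membrane proteins) 9 of 16 and of the TRIM genes (many of them antiviral ubiquitin ligases) 9 of 23. Of the TRIM genes, 8 lie inside receptor clusters, with a summit at 5, so that they are not a separate set of loci. The other 15 lie elsewhere, and 4 of them had a summit (26.7%, interval 10.9–52.0%). This interval for TRIM genes outside the clusters overlapped that of the receptor genes. The beta-globin genes, which are expressed in erythroid cells and lie within the class I cluster, had 2 of 5. The KRTAP5 genes had a median body of 1173 bp, close to that of the receptor genes, with 7 of 11 (63.6%, interval 35.4–84.8%) near a summit. Among the 30 protein-coding genes that lie between or over the receptor genes in their clusters, 12 (40.0%, interval 24.6–57.7%) had a summit. Its interval overlapped that of the receptor genes. These 30 genes include 6 receptor loci with a pseudogene-type symbol, which the name rule left among the other genes and of which 1 (OR5D3P) had a summit. Without them the count was 11 of 24 (45.8%, interval 27.9–64.9%), with an interval that began just above that of the receptor genes. Genes for the olfactory signalling chain and for receptor trafficking lie on several chromosomes, and 13 of 14 had a summit within 10 kb. They included ADCY3 (the olfactory adenylyl cyclase, 4 summits), CNGA4 (a subunit of the olfactory cation channel, 1 summit) and OMP (olfactory marker protein, 4 summits), and RTP1 (a receptor-transporting protein) had none. For genes of factors known at receptor gene enhancers and promoters, among them LHX2 and EBF1, the count was 7 of 7. Over all chromosomes, 81.7% of protein-coding genes had a summit within 10 kb, and 92.5% of those with a body of at least 50 kb. As these 2 lists hold long genes, with median bodies of 56862 and 67329 bp, their counts were near that background and are no result about these genes.

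**Figure D1:**
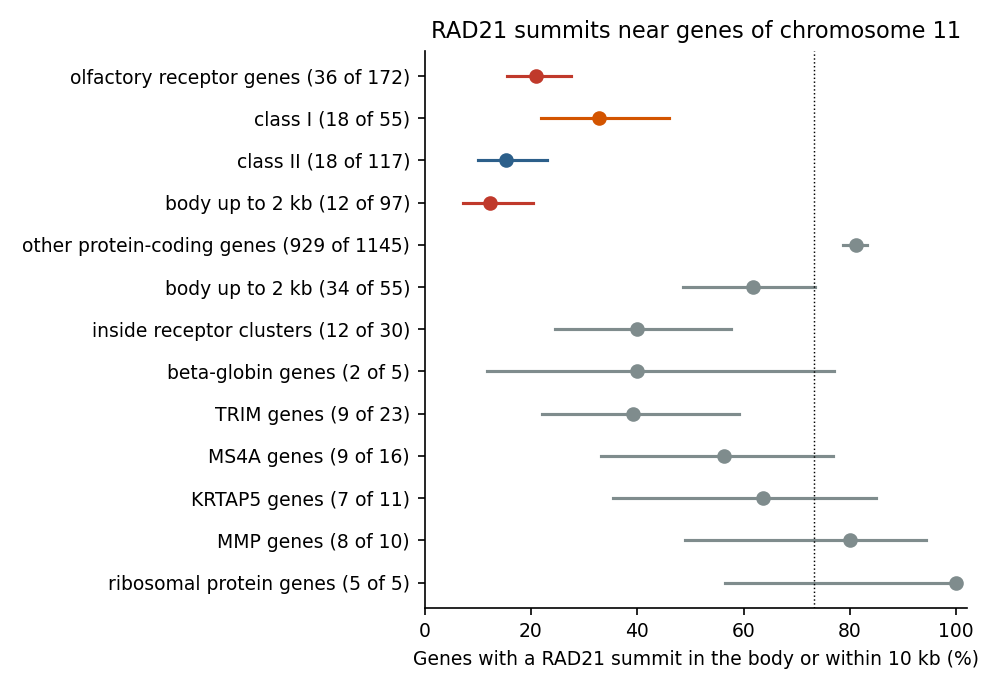
Share of genes (x axis, %) with a RAD21 summit in the body or within 10 kb, for the receptor genes, their classes and short members, and for other gene lists of chromosome 11; points are shares, bars are 95% Wilson intervals, counts stand beside each name and the dotted line is the share over all genes (73.3%). The 4 receptor rows lie between 12.4% and 32.7%, and the family closest to them is TRIM at 39.1%. Of the 23 TRIM genes, 5 of 8 inside receptor clusters and 4 of 15 outside them had a summit.

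The same contrast was seen per length of DNA. Gene bodies with 10 kb on each side merged into 93 receptor gene windows of 3.56 Mb, which held 35 summits, or 9.84 per Mb (exact Poisson interval 6.85–13.7). The windows of the other genes held 1879 summits in 75.4 Mb, or 24.9 per Mb (interval 23.8–26.1). The chromosome outside all windows of protein-coding genes held 14.2 per Mb (interval 13.3–15.2). This territory, called outside all gene windows here and below, can hold genes that do not code for protein. The density in receptor windows was 0.395 times that in the other genes' windows (interval 0.274–0.551). Set against DNA outside all gene windows, the ratio was 0.692 (interval 0.478–0.970), so that the receptor windows also lay below that DNA, by a margin close to the counting error. Against the windows of the other genes inside the same clusters, which held 13.5 summits per Mb, the ratio was 0.730 with an interval of 0.413 to 1.32, which includes 1. A lower density than in neighbouring genes was thus not established. These windows overlap the receptor windows, and 8 of the 35 receptor summits also lie in windows of other genes. Shared DNA and summits count on both sides, while the interval treats the sides as separate, so that this ratio cannot decide the question. Outside the windows of other genes, the receptor windows held 27 summits, or 9.95 per Mb (interval 6.56–14.5). The clusters as whole spans, from the first to the last receptor gene, held 63 summits in 5.92 Mb (10.6 per Mb, interval 8.17–13.6), or 0.528 times the density of the chromosome. Summits were as dense as on the whole chromosome (20.1 per Mb) directly beyond the clusters, with 20.4 per Mb in the 250 kb outside them, 21.0 between 250 and 500 kb and 23.3 between 500 and 1000 kb.

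The 35 summits near receptor genes were few but not weak. Fold enrichment ranged from 2.75 to 21.1 with a median of 8.41 (quartiles 5.14 and 12.2), and 12 of them (34.3%, interval 20.8–50.8%) reached 10. The median was 5.92 for the summits in windows of the other genes, of which 29.4% reached 10. Summits within 1 kb of a protein-coding transcription start were lower (median 4.20, 599 summits) than those farther away (median 6.56, 2110 summits). None of the receptor summits lay within 1 kb of the start of another protein-coding gene and 2 lay within 1 kb of a receptor gene start, so that the summits away from starts are the closer comparison. The 95% interval of the median of the 35 summits, taken from their ranks, was 5.51–10.1 and included both 5.92 and 6.56. The local background was at its lowest value, 5.90 fragments, for 19 of the 35 and at least 2 times that value for 1. Of the 35 summits, 8 lay in the body of a receptor gene and 27 beside receptor genes, 29 were in reach of 1 receptor gene and 6 of 2, and 8 lay in the body of another protein-coding gene. None lay in an olfactory receptor pseudogene.

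The highest of these summits lay in OR52K1 (ENSG00000196778.4, class I, plus strand, GRCh38 chr11:4482646-4493497). It had a fold enrichment of 21.1 from 180 fragments (exact Poisson interval 155–208) and lay in the 3′ UTR, 10780 bp from the transcription start. Next came the summit 293 bp before OR52N2 (ENSG00000180988.3, chr11:5808924-5821483, plus strand) with a fold enrichment of 20.3 from 192 fragments. That summit lies in an intron of TRIM5, a gene of an antiviral factor that overlaps this region. The summit 380 bp before OR51D1 (ENSG00000197428.3, chr11:4637477-4643060, plus strand) had a fold enrichment of 19.5 from 162 fragments and was also within 10 kb of OR51E1. The summits before OR52N2 and OR51D1 are the only 2 within 1 kb of a receptor gene start. In class II, the highest summit lay 5817 bp before OR5B21 (ENSG00000198283.3, chr11:58506807-58508105, minus strand), between genes, with a fold enrichment of 18.9 from 161 fragments. The summit 806 bp beyond the end of OR4S1 (ENSG00000176555.1, chr11:48306223-48307152, plus strand) had a fold enrichment of 17.0 from 145 fragments. The bases around these 5 summits are shown, from GRCh38 and on the plus strand, because they are the strongest RAD21 sites near the receptor genes. Capitals mark the 12 bases that match the CTCF consensus with at most 1 mismatch, read on either strand, and a sequence without capitals holds no such match.
OR52K1, chr11:4493422-4493451: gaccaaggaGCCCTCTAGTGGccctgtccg
OR52N2, chr11:5808581-5808681: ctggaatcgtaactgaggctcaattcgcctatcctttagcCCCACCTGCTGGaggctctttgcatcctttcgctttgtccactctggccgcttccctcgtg
OR51D1, chr11:4637047-4637147: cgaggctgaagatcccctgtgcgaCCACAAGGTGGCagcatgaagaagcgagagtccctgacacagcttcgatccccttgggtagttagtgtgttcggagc
OR5B21, chr11:58513872-58513972: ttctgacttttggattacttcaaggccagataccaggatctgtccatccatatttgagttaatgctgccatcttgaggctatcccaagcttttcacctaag
OR4S1, chr11:48307908-48308008: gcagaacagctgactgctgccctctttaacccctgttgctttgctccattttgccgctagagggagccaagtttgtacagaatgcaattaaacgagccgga

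The match is exact in OR52K1 and on the minus strand, has 1 mismatch in OR52N2 (minus strand) and OR51D1 (plus strand), and is absent from the printed bases of OR5B21 and OR4S1. At up to 1 mismatch, the 3 highest class I summits thus held a match and the 2 highest class II summits did not. These summits were picked by height, and sites with more mismatches were not searched. Of the others, the class I summit in OR56A1 (14.3) held no match and the class II summit near OR10D3 (11.7) held one. Over all summits, a match lay at 13 of 17 in class I and 7 of 18 in class II, with overlapping intervals.

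Summits inside receptor gene bodies were few, and none lay in coding sequence. OR51L1 (ENSG00000176798.3, class I, chr11:4994851-5005536, plus strand) had a summit in its 3′ UTR with a fold enrichment of 9.91 from 84 fragments, and another summit within 10 kb, in the body of the MMP26 gene, at 5.51 from 37 fragments. OR56A1 (ENSG00000180934.7, class I, chr11:6019336-6034338, minus strand) had its summit in the 3′ UTR too, at 14.3 from 98 fragments. The other 2 genes with a summit in the body have very long annotated bodies, so that these summits lay in introns far from the coding exon. OR51B5 (ENSG00000167355.8, class I, chr11:5303444-5505652, minus strand) spans 202209 bp over the globin region and held summits of 9.57 from 71 fragments and 4.90 from 41 fragments. OR9Q1 (ENSG00000186509.4, class II, chr11:58023881-58181616, plus strand) spans 157736 bp and held 3 summits, the most of any receptor gene, with fold enrichments of 5.61, 4.19 and 4.01 from 40, 31 and 28 fragments. OR52M1 (ENSG00000197790.1, class I, chr11:4545191-4546144, plus strand) was the remaining gene with 2 summits in reach, at 8.70 and 5.94, one on each side of the gene. Bases at the summits in OR51L1, OR56A1 and, for its higher summit, OR51B5 are given to show the sites within genes, with capitals as above.
OR51L1, chr11:5004619-5004648: ccctgcggcACCCTCTGCTGGccaagttta
OR56A1, chr11:6023151-6023180: ccacaaatagccacaaaggggcaatgttga
OR51B5, chr11:5380868-5380968: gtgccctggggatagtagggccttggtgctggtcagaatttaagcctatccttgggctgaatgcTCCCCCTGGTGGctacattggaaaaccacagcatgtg

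The match has 1 mismatch and lies on the minus strand in OR51L1 and OR51B5, and OR56A1 holds none in the bases shown or within 50 bp of the summit.

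A larger share of class I than of class II genes had a summit, but the intervals of these shares overlapped. Of 55 class I genes, 18 (32.7%, interval 21.8–45.9%) had a summit within 10 kb, and of 117 class II genes, 18 (15.4%, interval 9.96–23.0%). Class I windows held 17 summits at 14.7 per Mb (interval 8.54–23.5) and class II windows 18 summits at 7.51 per Mb (interval 4.45–11.9). The ratio of these densities was 1.95 with an interval of 0.945 to 4.01, which includes 1, and so a difference in density was not established at this number of summits. The median distance to a summit was 24.3 kb in class I and 42.9 kb in class II. All class I genes lie in 1 cluster, so that class and position on the chromosome cannot be told apart. By family, a summit within 10 kb was found for 7 of 22 OR51 genes, 8 of 27 OR52 genes and 3 of 6 OR56 genes of class I. In class II it was found for 7 of 35 OR5 genes, 6 of 23 OR8 genes, 2 of 5 OR9 genes, 1 of 5 OR2 genes, 1 of 16 OR10 genes and 1 of 26 OR4 genes. None of the 5 OR6 genes and neither of the 2 OR1 genes had one, counts too low to set them apart from the other families. The OR4 gene was OR4S1.

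The receptor genes formed 11 clusters when neighbours at most 500 kb apart were joined, and 7 of these had at least 5 genes. The cluster from OR52B4 to OR52W1 (chr11:4367263-6200186) holds all 55 class I genes and had 25 summits, or 13.6 per Mb, with the highest fold enrichment at 21.1. The cluster from OR4A16 to OR5AK2 (chr11:55343201-56989843) has 48 genes and had 12 summits, or 7.29 per Mb (interval 3.77–12.7), and 5 of its genes had one within 10 kb. That from OR6X1 to OR8A1 (chr11:123753580-124582942) has 22 genes and had 9 summits, or 10.9 per Mb. The clusters from OR9Q1 to OR5B21 with 13 genes and from OR5AN1 to OR10V1 with 8 genes had 4 summits each, that from OR4B1 to OR4A47 with 7 genes had 3, and that from OR2AG2 to OR2D3 with 8 genes had 2. The intervals of all 7 densities overlapped, so that the clusters could not be ranked by density. In the small cluster from OR4C46 to OR4A5, 3 genes over 0.105 Mb, no summit was found. The interval of this count of 0 reached 35.2 per Mb, above the density of the whole chromosome.

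Within the clusters the summits left long stretches free. The longest ran over 432245 bp (chr11:56089873-56522118) and held 20 class II genes, from OR8I2 to OR5M8. The 3 genes farthest from any summit lay in it, OR8K3 (ENSG00000280314.4) at 201479 bp, OR8H1 (ENSG00000181693.9) at 198589 bp and OR5T1 (ENSG00000181698.5) at 184281 bp. The summits that end this stretch had fold enrichments of 5.22 from 35 fragments and 5.64 from 42 fragments. In the cluster from OR6X1 to OR8A1, a free stretch of 315970 bp from its start held 11 genes, OR6X1 to OR10G7. In the class I cluster the longest was 208202 bp with 9 genes, OR52R1 to OR51A2. Counted along the chromosome, the longest run of receptor genes with no summit within 10 kb was 24 genes, from OR4C3 to OR5W2. This run is no single free stretch, as it passes through 4 clusters, whose spans hold 8 summits between its genes. Each lies more than 10 kb from any receptor gene that the name rule took. The summit at chr11:55726913 lies in OR5D3P, a receptor locus that the rule left out. The clusters were bordered by summits of varied height. The summit nearest to the left end of the class I cluster lay 179538 bp away with a fold enrichment of 58.7, above any summit within it, whereas that nearest to the right end lay 51105 bp away at 9.44.

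The globin genes are embedded in the class I cluster, and the summits near them were also those nearest to several receptor genes. OR51V1 (ENSG00000176742.3, chr11:5199735-5200682, minus strand) had a summit 4299 bp away with a fold enrichment of 13.9 from 95 fragments, and that summit lay 20483 bp from HBB, the adult beta-globin gene. OR51B4 (ENSG00000183251.4, chr11:5301014-5301946, minus strand) had one 9550 bp away at 12.6 from 86 fragments. It lies in the annotated bodies of HBG2 and HBE1, fetal and embryonic globin genes that GENCODE extends over 252418 and 237308 bp. Of the globin genes only these long HBG2 and HBE1 had a summit within 10 kb, and HBB, HBD and HBG1 had none.

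Matches to the CTCF consensus were scarce in the receptor windows, and the share of them that lay in a RAD21 peak was like that elsewhere. Exact matches numbered 5, or 1.41 per Mb (interval 0.456–3.28), against 5.25 per Mb in windows of other genes and 3.28 per Mb outside all gene windows. With up to 1 mismatch there were 132 matches, or 37.1 per Mb (interval 31.0–44.0), against 71.0 and 46.4 per Mb. Of these 132 matches, 24 (18.2%, interval 12.5–25.6%) lay in a RAD21 peak, against 18.8% in windows of other genes and 16.2% outside all gene windows. Class I windows had 50.0 such matches per Mb with 27.6% in a peak (interval 17.8–40.2%), and class II windows 30.9 per Mb with 10.8% in a peak (interval 5.58–19.9%). The GC content of the receptor windows was 37.7% and that of the other windows 42.9%, with 6.26 and 11.5 CpG per kb. The part of base composition in the number of matches was not tested.

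Seen from the summits, an exact match lay within 50 bp of 3 of the 35 receptor summits (8.57%, interval 2.96–22.4%), against 13.0% of the summits in windows of other genes. With up to 1 mismatch it was 20 of 35 (57.1%, interval 40.9–72.0%), against 41.8% in windows of other genes and 47.4% of the chromosome 11 summits away from protein-coding starts, both within the interval. Of windows of the same length tiled over the receptor windows, 0.307% held such a match. In class I it was found at 13 of 17 summits and in class II at 7 of 18, with overlapping intervals of 52.7–90.4% and 20.3–61.4%. Of the 20 matches, 8 were on the plus and 12 on the minus strand. Beside OR52K1, the exact matches lay between OR5A2 and OR5A1 (ENSG00000172324.6 and ENSG00000172320.4), at a summit of 10.1 from 124 fragments in reach of both genes, and 3481 bp beyond OR8A1 (ENSG00000196119.8), at a summit of 6.52 from 44 fragments. Their bases are given for comparison with that of OR52K1 above, again on the GRCh38 plus strand and with the match, on the minus strand in both, in capitals.
OR5A2, chr11:59430050-59430150: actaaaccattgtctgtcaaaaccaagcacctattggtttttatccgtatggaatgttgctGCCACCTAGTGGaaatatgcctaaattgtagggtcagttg
OR8A1, chr11:124586373-124586473: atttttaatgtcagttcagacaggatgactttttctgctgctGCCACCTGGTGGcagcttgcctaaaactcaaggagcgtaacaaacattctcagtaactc

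Both summits lie between genes. The other 2 exact matches in the windows, near OR8J3 and OR9Q1, lay in no peak.

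Promoters of receptor genes differed from those of other genes in composition. RefSeq promoter sequences (250 bases before to 50 after the start, GRCh38.p14) were found for 133 of the 172 receptor genes, with 136 promoters, and for 803 of the 1145 other genes, with 1128 promoters. A RAD21 peak overlapped 1 of these 136 receptor promoters (0.735%), that of OR52N2, against 21.4% of the other promoters. OR51D1 was among the genes without a matched promoter. A peak (chr11:4636838-4637493) covers its annotated start at 4637477, so that OR52N2 is not the only receptor gene with a peak over its start. The receptor promoters had a median GC content of 37.0% and a median of 1 CpG, and 37 of them (27.2%) had none. Of the other promoters, with a median GC content of 62.3% and 21 CpG, 1.95% had none. The OR52N2 promoter had 14 CpG, the most among the receptor promoters, where the next held 6. Its GC content of 55.3% lay near that of the OR51E1 (57.0%, 3 CpG) and OR52K1 (54.7%, 2 CpG) promoters, which no peak overlapped.

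Receptor genes arose by duplication, and reads from identical or near-identical copies cannot be placed with certainty. The share of exactly repeated sequence was therefore measured. Copies with any differing base counted as unique, so that read placement between near-identical copies was not tested. Of all 100-mers in the receptor windows, 1.93% had another exact copy in the assembly, against 1.46% in windows of other genes and 7.45% outside all gene windows. In the coding sequences of the receptor genes it was 2.41%, and 132 of the 172 genes had no repeated 100-mer there. The window with the most repeated sequence had 17.6%. Without the 5 genes whose windows had at least 10%, 34 of 167 (20.4%) had a summit within 10 kb, close to the 20.9% of all receptor genes. At the summits near OR5F1 and OR8B3, which are 2 of these 5 genes, the fold enrichments were 2.75 and 9.66.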

How the data were processed

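RAD21 ChIP-seq of untreated wild-type HCT116 cells was analysed from its peak list. The authors trimmed the reads with Trimmomatic 0.39, aligned them with Bowtie2 2.5.3 to GRCh38, removed duplicates with Picard and called peaks with MACS2 2.2.9.1 against Input at a q-value threshold of 0.05. Which Input library served as control is not given in the sources used here. The deposited list gives for each peak a fold enrichment (a ratio), the −log10 p-value and q-value, a score (not used) and the summit. Fragments at a summit were recovered from ratio and p-value. All but 14 of 56853 numbers lay within 0.05 of a whole number. Read totals are not in the list, and 15 fragments was the lowest depth called.

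Genes were taken from GENCODE version 44, and peak coordinates were within the GRCh38 sequence. Windows were merged before densities were taken. The named genes were those with a summit in the body, those nearest to the 5 highest summits, the 3 with most summits, the 3 farthest from one, those next to 10 kb and those bounding clusters and free stretches. OR5A2, OR5A1, OR8A1, OR8J3, OR51V1, OR51B4, OR5F1, OR8B3, OR51E1 and OR5D3P were added after their values were seen. Members and lists were chosen with earlier results of these data known. With 1 library, no test was made. Alternatives were other windows, thresholds and comparison genes. Recovery was tested on simulated data, with 5000 of 5000 fragment numbers and 200 of 200 planted motifs found. Python 3.11.15, numpy 2.4.6, pandas 2.3.3 and scipy 1.17.1 were used.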

Additional observations from a re-analysis of the deposited data

How the results depend on the processing

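The 7 values of the receptor genes were recomputed under 47 alternatives, of which 35 stayed within the 95% interval of the value as reported. The share with a summit was 2.91% with the gene body only, 11.6% with 5 kb, 40.1% with 25 kb and 66.9% with 50 kb on each side, 15.1% around the transcription start, and 12.4% for bodies of up to 2 kb, an alternative added after seeing the data. In each of the 20 alternatives of share and density with a value for the other genes, the receptor genes lay below them. With 1 mismatch allowed, 57.1% of the summits had a CTCF match and the windows held 37.1 matches per Mb. The ratio of densities was 0.730 (interval 0.413–1.32, which includes 1) against other genes inside the clusters and 0.758 (0.422–1.40) when receptor loci with a pseudogene-type symbol were left out of these, 0.194 against other genes no longer than the 95th percentile of members and 0.692 against DNA outside gene windows, the last 3 added after seeing the data. In all 10 alternatives it was below 1. For the ratios of 0.730 and 0.758, the windows on both sides share DNA and summits, which their intervals do not take into account. The genes behind the 0.194 had windows with a GC content of 48.0%, against 37.7% in the receptor windows. With q below 1e-05, 34 of the 35 summits and 35 of the 36 genes remained.

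The list comes from 1 library, so that neither biological nor technical spread is known. No peak rests on fewer than 15 fragments, so that weaker binding at a gene without a summit was not detectable at this depth. Intervals treat genes and summits as independent, which genes of 1 cluster are not. No paired analysis was possible because there was 1 library and no test.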
